A study of Mus musculus with 32 samples.

Results

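A set of 10 genes of the Notch pathway is described here across 32 RNA sequencing libraries of mouse tumours, oviduct and ovary. They are the 4 receptor genes (Notch1, Notch2, Notch3 and Notch4), 4 ligand genes (Jag1, Jag2, Dll1 and Dll4) and 2 target genes (Hes1 and Hey1), taken by symbol from a table of 55450 genes. All 10 were measured and all 10 passed the filter on low counts in each fit, so no member was lost. The libraries fall into 10 groups, 8 of tumours and 2 of normal tissue, all from female mice. All tumours are Brca1 fl/fl and carry K18GT121 Tg/+, a transgene that inhibits Rb. OSE-BPR tumours (5 allografts and 3 GEMM tumours) arose in the ovarian surface epithelium of Trp53 fl/fl mice of the FVB strain, after adeno-Cre was placed below the bursa of the ovary. Ovgp1-BPR tumours (3 allografts and 3 GEMM tumours) came from oviduct epithelium through Ovgp1-CreERT2 Tg/+ and tamoxifen, with Cre in secretory cells. Their sample labels give Trp53 KozR172H ki/+, whereas the series text names the R172H mutation and yet lists Trp53 fl/fl. Pax8-BPR tumours (2 allografts and 4 GEMM tumours) were Trp53 fl/fl with Pax8-CreERT2 Tg/+, also with tamoxifen and Cre in oviduct secretory cells. Ad-BPR tumours (4 allografts and 2 GEMM tumours) were Trp53 fl/fl and began with adeno-Cre put in the oviduct. GEMM stands for genetically engineered mouse model, an allograft is a tumour grown from tissue transferred to another mouse, and tumours were harvested at endpoint, several months after induction. The 3 oviduct models and the wild type controls, normal oviduct (3 libraries) and normal ovary (3 libraries), are C57Bl/6.

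Notch receptors are cell surface proteins that are switched on by ligands on a neighbouring cell. Ligands of the Jagged and Delta families bind the receptor, metalloproteases and gamma-secretase then cut it, and the freed intracellular domain joins the DNA-binding protein Rbpj to switch on genes such as Hes1 and Hey1, which encode transcriptional repressors. In the female reproductive tract the pathway is known from granulosa cells and blood vessels of the ovary and from the epithelium of the oviduct. Notch3 is the receptor of pericytes and vascular smooth muscle, and Notch4 and Dll4 are best known from endothelium. In human ovarian carcinoma NOTCH3 is known as a gene that is amplified in some tumours.

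On GRCm38 the receptor genes lie on chromosome 2 from 26457903 to 26516663 (Notch1, minus strand), on chromosome 3 from 98013527 to 98150361 (Notch2, plus strand), on chromosome 17 from 32120820 to 32166852 (Notch3, minus strand) and on chromosome 17 from 34564268 to 34588503 (Notch4, plus strand). The ligand genes lie on chromosome 2 from 137081456 to 137116644 (Jag1, minus strand), on chromosome 12 from 112907819 to 112929776 (Jag2, minus strand), on chromosome 17 from 15367354 to 15376872 (Dll1, minus strand) and on chromosome 2 from 119325784 to 119335962 (Dll4, plus strand). Hes1 lies on chromosome 16 from 30064384 to 30067796 (plus strand) and Hey1 on chromosome 3 from 8663359 to 8667256 (minus strand). All are protein-coding genes in GENCODE M21. Dll1 shares 867 exon bases with a noncoding gene on the other strand, A930024N18Rik, whose counts over all libraries came to 9.07% of those of Dll1. The same ratio was 2.87% for Dll4 with Gm14207, and 1.86% for Notch1 with 0610009E02Rik. No source used here says whether counting used strand, so reads from such a pair may not be told apart.

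Promoters are shown for the receptor and the ligand with large differences between the models, Notch3 and Jag1, and for Lfng and Hey2, which are among the pathway genes named below that hold an Rbpj motif. They come from RefSeq on GRCm38.p6 and cover the bases before the annotated start, cut where any annotated exon begins. Capitals mark motifs, either the Rbpj core GTGGGAA (read on both strands, so also as TTCCCAC) or the E-box CACGTG that Hes and Hey proteins bind. The Notch3 window is chr17:32166891-32167140 (minus strand), the Jag1 window chr2:137116645-137116770 (minus strand), the Lfng window chr5:140607091-140607319 (plus strand) and the Hey2 window chr10:30842802-30843033 (minus strand).
Notch3: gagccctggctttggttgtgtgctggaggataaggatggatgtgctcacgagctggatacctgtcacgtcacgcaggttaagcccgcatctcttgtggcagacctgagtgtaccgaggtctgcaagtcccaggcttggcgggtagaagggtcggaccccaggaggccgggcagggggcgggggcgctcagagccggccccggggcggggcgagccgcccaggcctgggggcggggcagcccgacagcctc
Jag1: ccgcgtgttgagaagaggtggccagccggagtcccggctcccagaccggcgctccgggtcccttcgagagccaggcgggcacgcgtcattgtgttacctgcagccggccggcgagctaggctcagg
Lfng: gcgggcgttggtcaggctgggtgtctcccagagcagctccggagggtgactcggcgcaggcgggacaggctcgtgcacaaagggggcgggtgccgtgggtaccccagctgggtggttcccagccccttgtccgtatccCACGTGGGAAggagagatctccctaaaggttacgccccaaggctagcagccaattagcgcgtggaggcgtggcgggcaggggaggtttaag
Hey2: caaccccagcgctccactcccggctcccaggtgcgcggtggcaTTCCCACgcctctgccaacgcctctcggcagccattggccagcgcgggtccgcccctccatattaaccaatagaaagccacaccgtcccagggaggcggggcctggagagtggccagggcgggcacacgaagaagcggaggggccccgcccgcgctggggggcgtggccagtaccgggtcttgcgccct
In Lfng the E-box and the Rbpj core overlap, beginning 112 and 109 bases before the start, and in Hey2 the core begins 207 bases before it. Psen2, also named below but not shown, has the core beginning 89 and the E-box beginning 9 bases before an annotated start. Over the 250 bases before the start, 5.415% of 32851 RefSeq promoters held the Rbpj core and 6.021% the E-box. Of the 10 genes, 8 had a promoter in that table (9 promoters), and 0 of these held either motif. Of the 48 other pathway genes, 37 had one (51 promoters), with the Rbpj core in 6 and the E-box in 4. Hes1 and Hey1 have no entry. These are matches of letters and do not show binding.

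Libraries held between 13.99 M and 20.51 M assigned counts (median 17.43 M). Levels are given as CPM (counts relative to the TMM-scaled library total) within a gene, and as TPM (also divided by gene length) between genes. Trp53 stood at 8.40 to 43.0 CPM in the OSE-BPR, Pax8-BPR and Ad-BPR tumours, at 101.0 to 156.9 in the Ovgp1-BPR tumours and at 83.4 to 119.6 in normal tissue. Pax8, which marks oviduct secretory cells, was at 0 to 2.12 CPM in OSE-BPR tumours and at 19.6 to 206.6 in the oviduct-origin tumours. Epcam, an epithelial marker, was at 394.1 to 1547 CPM in OSE-BPR, Pax8-BPR and Ad-BPR tumours but at 0.466 to 467.3 in Ovgp1-BPR allografts and 3.63 to 199.6 in Ovgp1-BPR GEMM tumours. Normal oviduct replicates 1 and 3 carried ovarian transcripts, with 97.9 and 80.1 CPM summed over 5 oocyte genes against 3.53 in replicate 2, beside 257.1 to 289.2 in normal ovary. In bulk RNA such as this, fewer cells of a type and less RNA per cell cannot be told apart. The labels do not name the tumours that were grafted, and several allografts may stem from the same one.

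Measured in TPM, Notch2 made up most of the receptor RNA in OSE-BPR and Ovgp1-BPR tumours, and Jag1 most of the ligand RNA in Pax8-BPR and Ad-BPR tumours. The 4 receptors summed to 52.9 ± 11.2 TPM in OSE-BPR allografts and 61.5 ± 15.9 in OSE-BPR GEMM tumours (mean ± SD here and below), against 58.6 ± 10.8 in normal oviduct and 53.5 ± 2.75 in normal ovary. The oviduct-origin groups had receptor sums with means between 74.9 and 97.6 TPM. Notch2 took 68.5 ± 8.72% of the receptor TPM in OSE-BPR allografts, 63.6 ± 9.60% in OSE-BPR GEMM tumours, 63.4 ± 15.2% in Ovgp1-BPR allografts and 57.1 ± 14.5% in Ovgp1-BPR GEMM tumours. In the 4 Pax8-BPR and Ad-BPR groups and the 2 normal tissues its share lay between 32.9% and 36.4%. The share of Notch3 ran the other way. It was 6.92 ± 1.51% in OSE-BPR allografts, 7.05 ± 2.57% in OSE-BPR GEMM tumours, 8.72 ± 8.63% in Ovgp1-BPR allografts and 9.58 ± 5.98% in Ovgp1-BPR GEMM tumours, against 26.4 ± 0.335% in normal oviduct and 26.2 ± 3.03% in normal ovary.

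The 4 ligands summed to 17.5 ± 4.52 TPM in OSE-BPR allografts and 23.8 ± 12.0 in OSE-BPR GEMM tumours, below the group means of 47.2 to 106.1 in oviduct-origin tumours. Normal oviduct had 64.2 ± 10.8 and normal ovary 40.3 ± 2.76 TPM. Jag1 took 62.3 ± 5.66% of the ligand TPM in Pax8-BPR allografts, 69.1 ± 16.2% in Pax8-BPR GEMM tumours, 66.5 ± 11.8% in Ad-BPR allografts and 51.8 ± 5.49% in Ad-BPR GEMM tumours. Its mean share lay between 20.8% and 31.0% in the OSE-BPR and Ovgp1-BPR groups. There the other ligands weighed more, with Jag2 at 54.3 ± 14.0% in OSE-BPR allografts and 37.4 ± 12.0% in OSE-BPR GEMM tumours. Dll1 reached 30.2 ± 19.5% in Ovgp1-BPR allografts and 24.0 ± 16.0% in Ovgp1-BPR GEMM tumours, and had a mean of 2.00% to 6.07% in the other 6 tumour groups. Hes1 was the most abundant of the 10 genes per length, with a median of 93.0 TPM over the 26 tumours, beside 34.2 for Notch2 and 2.35 for Dll1, the lowest.

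**Figure D1:**
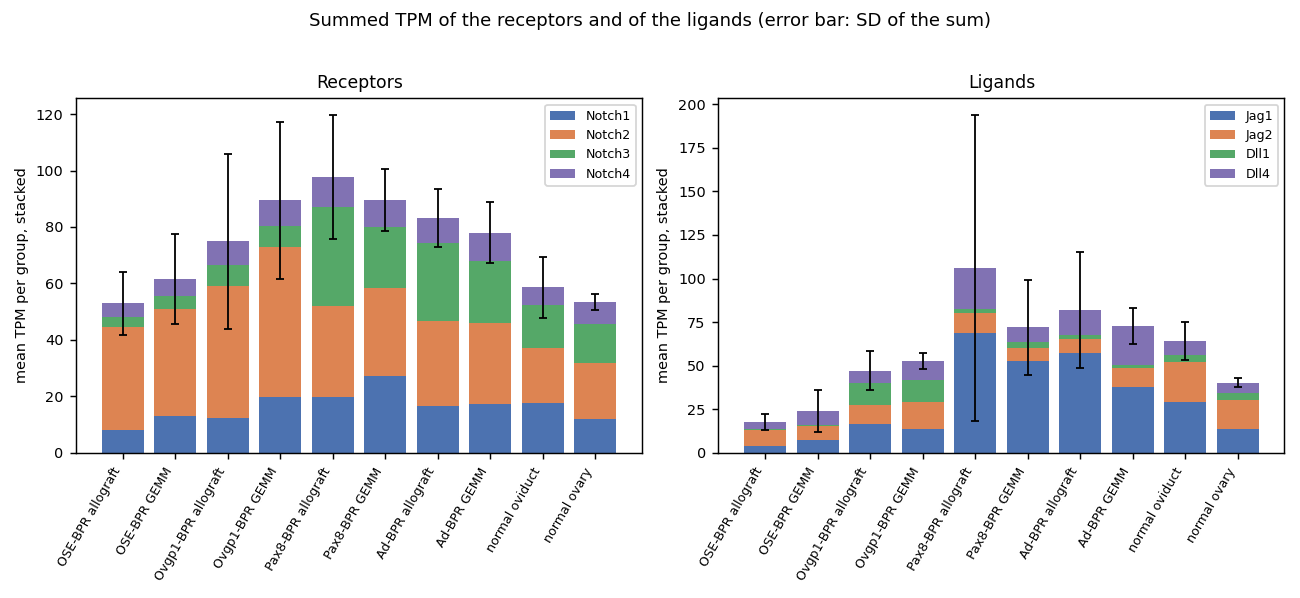
Mean TPM per group, stacked by gene, for the 4 receptors (left) and the 4 ligands (right), with the groups on the x axis and the SD of each group's sum as error bar. Notch2 fills most of the receptor bars of OSE-BPR and Ovgp1-BPR tumours, and the ligand bars of OSE-BPR tumours, at 17.5 and 23.8 TPM, are the shortest.

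Among the receptors, Notch3 differed most between the models, and it was low in OSE-BPR and Ovgp1-BPR tumours. It stood at 13.5, 13.3, 8.94, 11.3 and 12.5 CPM in the 5 OSE-BPR allografts and at 29.6, 12.8 and 9.58 CPM in the 3 OSE-BPR GEMM tumours. In Ovgp1-BPR tumours it was at 9.36, 8.74 and 71.8 CPM in the allografts and at 32.6, 32.5 and 21.4 CPM in the GEMM tumours. One Ovgp1-BPR allograft, replicate 3, was therefore several times higher than the others of its model. Pax8-BPR allografts had 97.2 and 237 CPM and Pax8-BPR GEMM tumours 111, 67.3, 109 and 127 CPM. Ad-BPR allografts had 101, 121, 116 and 169 CPM and Ad-BPR GEMM tumours 111 and 88.2 CPM. Normal oviduct had 52.5, 86.5 and 72.5 CPM and normal ovary 65.0, 65.8 and 59.9 CPM. Every Pax8-BPR and Ad-BPR tumour lay above every OSE-BPR tumour, while the Ovgp1-BPR tumours overlapped with OSE-BPR.

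Notch3 fell in OSE-BPR allografts against the mean of the oviduct-origin allografts, at -2.85 ± 0.45 (log2 fold change ± SE here and below, edgeR quasi-likelihood test, adjusted p = 7.71e-05). Among GEMM tumours the same contrast gave -1.94 ± 0.53 (adjusted p = 0.0108), and OSE-BPR GEMM tumours against normal ovary gave -1.88 ± 0.54 (adjusted p = 0.0146). These GEMM calls rested on few tumours. Without OSE-BPR GEMM replicate 2 the adjusted p became 0.0626 against oviduct-origin and 0.0758 against ovary, and without replicate 3 it became 0.0758 and 0.0787. Without replicate 1, the highest of the group, the log2 fold changes grew to -2.57 and -2.49. Notch3 also fell in Ovgp1-BPR tumours against the mean of Ad-BPR and Pax8-BPR, with -2.28 ± 0.56 in allografts (adjusted p = 0.00646) and -1.82 ± 0.54 in GEMM tumours (adjusted p = 0.0216), and neither pair of ranges overlapped. Without Ovgp1-BPR allograft replicate 3 the allograft value was -4.04. The GEMM call was lost without Ad-BPR GEMM replicate 1 (adjusted p = 0.0555), Ovgp1-BPR GEMM replicate 2 (0.0642) or replicate 3 (0.109). Against normal oviduct, the Ovgp1-BPR GEMM tumours gave -1.29 ± 0.53, which missed the threshold (adjusted p = 0.0654) although the ranges did not overlap, and which passed in DESeq2 (0.0411).

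Mural cells, which are known for Notch3, also had lower marker sums in OSE-BPR than in Pax8-BPR and Ad-BPR tumours. The summed CPM of 7 mural cell genes (Rgs5, Pdgfrb and others, without Notch3) was 102 to 244 in OSE-BPR allografts and 112 to 337 in OSE-BPR GEMM tumours. It was 144 to 329 in Ovgp1-BPR allografts, 346 to 399 in Ovgp1-BPR GEMM tumours and 343.9 to 798.3 in the Pax8-BPR and Ad-BPR tumours. Of these 7 genes, 4 were lower in OSE-BPR allografts than in oviduct-origin allografts and 2 in the GEMM tumours, with 0 higher in either, while 1 was lower and 0 higher in Ovgp1-BPR against Ad-BPR and Pax8-BPR in each setting. Smooth muscle and macrophage markers were lower throughout in OSE-BPR against oviduct-origin tumours, 6 of 6 and 4 of 4 genes in allografts and again in GEMM tumours. The smooth muscle list summed to 129.6 to 319.4 CPM in OSE-BPR tumours and 358.7 to 1666 CPM in oviduct-origin tumours, and the macrophage list to 27.8 to 109.0 CPM in OSE-BPR tumours and 68.1 to 533.6 CPM in oviduct-origin tumours. A list of 5 fibroblast genes summed to 261 to 944 CPM in OSE-BPR allografts, 229.5 to 1501 in OSE-BPR GEMM tumours, 986.7 to 2056 in Ovgp1-BPR tumours and 3146 to 12898 in Pax8-BPR and Ad-BPR tumours. Of these 5 genes, 3 were lower in OSE-BPR than in oviduct-origin allografts and 2 in the GEMM tumours, with 0 higher in either. In Ovgp1-BPR against Ad-BPR and Pax8-BPR, 1 was lower and 1 higher in allografts, and 2 lower and 1 higher in GEMM tumours. In Ovgp1-BPR allograft replicate 3, where Notch3 was high, the mural sum was 329.3 CPM against 196.7 and 143.8 in replicates 1 and 2, and 5 epithelial genes summed to 3591 CPM against 1004 and 574.2. In OSE-BPR GEMM replicate 1, the highest of its group, the mural sum was 337.0 CPM against 185.4 and 111.6, and the fibroblast sum 1501 against 320.5 and 229.5. Other libraries went the other way. Pax8-BPR allograft replicate 2 had the highest Notch3 of all libraries, at 236.8 CPM, with a mural sum of 343.9 CPM against 390.4 in replicate 1. The mural sum was 1925 to 2039 CPM in normal oviduct and 604.4 to 637.1 in normal ovary, where Notch3 was similar. The part of these cells in the Notch3 values was not tested. OSE-BPR tumours also differ from the oviduct models in strain, FVB against C57Bl/6, and origin and strain cannot be told apart here. Normal ovary is C57Bl/6 too, so in every comparison of OSE-BPR GEMM tumours with ovary, including the calls for Notch3, Jag2 and Dll1, tumour and strain cannot be told apart.

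Notch1, the receptor known from many epithelia and lymphocytes, varied less. It was at 18.8 to 81.8 CPM in OSE-BPR allografts, 30.7 to 99.3 in OSE-BPR GEMM tumours and 99.1 to 180.4 in Pax8-BPR GEMM tumours, against 83.9 to 121 in normal oviduct and 62.1 to 67.2 in normal ovary. Ovgp1-BPR allografts had 35.9, 29.8 and 97.2 CPM and Ovgp1-BPR GEMM tumours 127, 57.9 and 75.6 CPM. In all, 4 of the OSE-BPR and 2 of the Ovgp1-BPR allografts lay below every Pax8-BPR and Ad-BPR tumour, and the others of these models, at 81.8 and 97.2 CPM, did not. Its difference in OSE-BPR against oviduct-origin allografts, -1.02 ± 0.35, passed the test (adjusted p = 0.0281). The call was lost without OSE-BPR allograft replicate 1, 3, 4 or 5 (adjusted p between 0.064 and 0.0817) or without Ovgp1-BPR allograft replicate 3 (adjusted p = 0.0539). In GEMM tumours the value was -0.80 ± 0.42 and missed the threshold (adjusted p = 0.168), but passed with voom (0.00236) and, at -1.37, without OSE-BPR GEMM replicate 1 (0.0466). Ovgp1-BPR against Ad-BPR and Pax8-BPR allografts gave -0.87 ± 0.45 (adjusted p = 0.168), which passed with voom (0.00267) and, at -1.63, without Ovgp1-BPR allograft replicate 3 (0.0207). Normal oviduct was higher than normal ovary, at 0.69 ± 0.13 (adjusted p = 0.00432).

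Notch2, the receptor with the highest median TPM, passed no test between the models with all libraries. In tumours its group means ran from 176 ± 56.6 CPM in Ad-BPR GEMM tumours to 289 ± 139 in Ovgp1-BPR GEMM tumours, against 128 ± 23.0 in normal oviduct and 124 ± 21.2 in normal ovary. OSE-BPR against oviduct-origin tumours gave -0.13 ± 0.24 in allografts and -0.05 ± 0.28 in GEMM tumours (adjusted p = 0.696 and 0.921). Without Ovgp1-BPR GEMM replicate 2, Ovgp1-BPR against Ad-BPR and Pax8-BPR GEMM tumours passed, at 0.92 (adjusted p = 0.0451, against 0.147 with all libraries). Against normal tissue it rose in Ovgp1-BPR GEMM tumours, at 302, 144 and 422 CPM, against 101, 143 and 139 CPM in normal oviduct, and the lowest tumour lay just above the highest oviduct. The log2 fold change was 1.18 ± 0.33 (adjusted p = 0.00829). The call was lost without Ovgp1-BPR GEMM replicate 3 (adjusted p = 0.0865) and with oviduct replicate 2 as the sole control (0.22). In the other 3 GEMM groups against their normal tissue the fold changes were 0.76 ± 0.33 for OSE-BPR, 0.69 ± 0.31 for Pax8-BPR and 0.47 ± 0.36 for Ad-BPR, none of which passed (adjusted p between 0.0864 and 0.357). The OSE-BPR tumours, at 227, 218 and 187 CPM, nevertheless all lay above normal ovary, at 118, 107 and 148 CPM, and the Pax8-BPR tumours, at 189.6, 192, 229 and 214 CPM, all lay above oviduct. In a fit of only the groups compared both passed (adjusted p = 0.0146 for OSE-BPR and 0.0214 for Pax8-BPR). The OSE-BPR difference also passed with limma on log2(TPM + 1) or log2(TPM + 0.1) and with voom (0.0408, 0.0393 and 0.015), so the rise was not shown to be particular to Ovgp1-BPR.

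Notch4, the endothelial receptor, was at 7.49 to 14.4 CPM in OSE-BPR allografts and 15.5 to 35.0 in Ad-BPR GEMM tumours, with 12.8 to 17.6 in normal oviduct and 18.8 to 19.7 in normal ovary. It was lower in OSE-BPR allografts than in oviduct-origin allografts, at -0.98 ± 0.25 (adjusted p = 0.00486), a call kept whichever single library was left out. The GEMM contrast gave -0.71 ± 0.30 and missed the threshold (adjusted p = 0.0875), but passed without Ad-BPR GEMM replicate 1 (0.0431) and in DESeq2 (0.0489). A list of 10 endothelial genes summed to 202 to 321 CPM in OSE-BPR allografts, 262 to 538 in Ovgp1-BPR, 231 to 352 in Pax8-BPR and 212 to 376 in Ad-BPR allografts. Of these genes, 5 were lower and 1 higher in OSE-BPR allografts. In Ovgp1-BPR against Ad-BPR and Pax8-BPR allografts, where Dll4 fell (below), 1 was lower and 2 higher, with a median log2 fold change of -0.81. In Ad-BPR GEMM tumours over oviduct, where Dll4 rose, 4 were lower and 0 higher, with a median of -1.23. The part of endothelium in the Notch4 and Dll4 values was not tested.

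**Figure D2:**
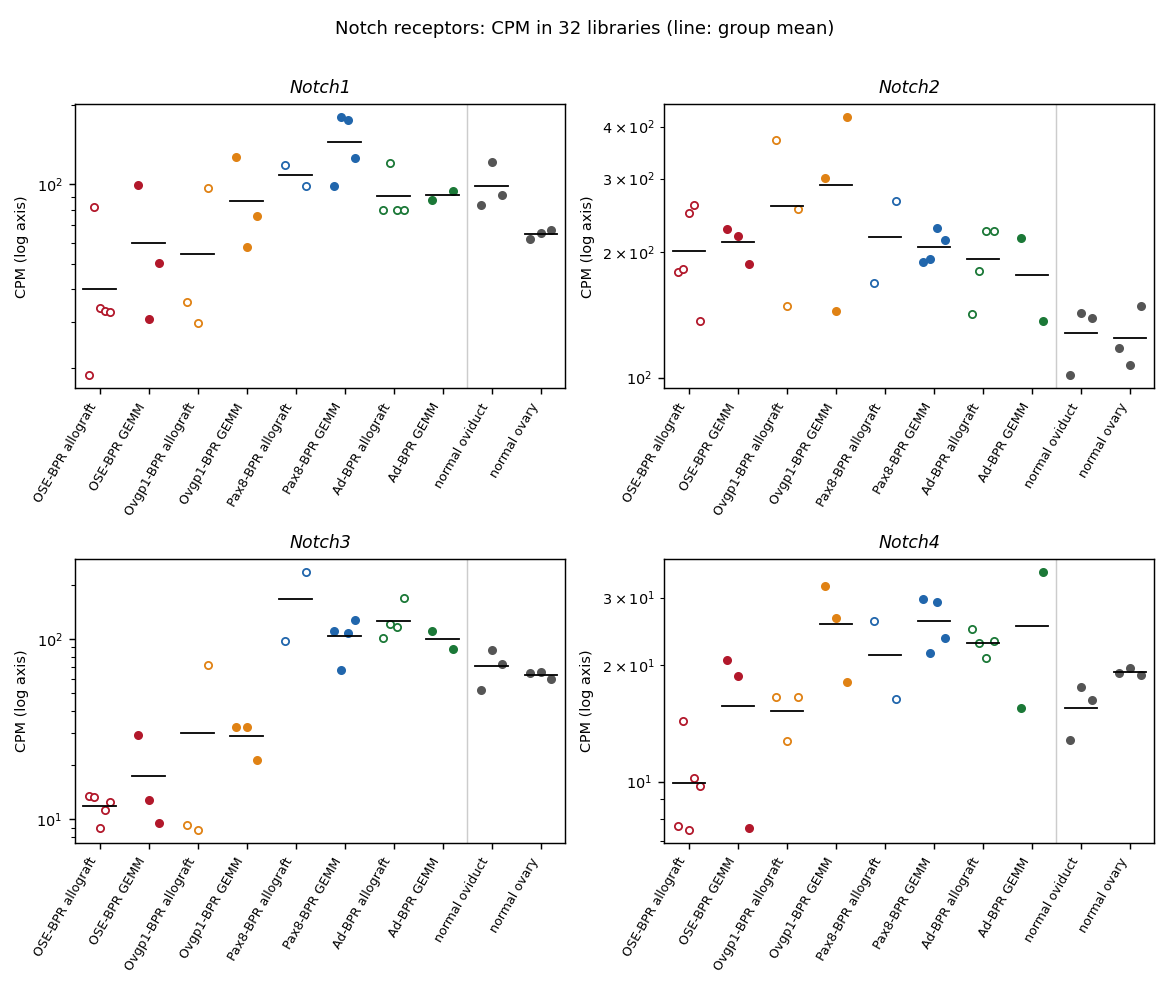
CPM of the 4 receptor genes in each of the 32 libraries (points, log axis), by group on the x axis, with the group mean as a line, open symbols for allografts and filled symbols for GEMM tumours and normal tissue. Notch3 sits between 8.74 and 71.8 CPM in OSE-BPR and Ovgp1-BPR tumours and between 67.3 and 236.8 in Pax8-BPR and Ad-BPR tumours, while Notch2 overlaps among all tumour groups.

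Among the ligands, Jag1 was, like Notch3, low in OSE-BPR tumours. Jag1 stood at 5.97, 18.1, 3.65, 13.1 and 7.38 CPM in OSE-BPR allografts and at 34.7, 13.1 and 4.76 CPM in OSE-BPR GEMM tumours. Ovgp1-BPR allografts had 17.8, 15.4 and 92.2 CPM and Ovgp1-BPR GEMM tumours 63.5, 23.5 and 9.18 CPM. The same Ovgp1-BPR allograft, replicate 3, was high for both genes. Pax8-BPR allografts had 306 and 73.0 CPM and Pax8-BPR GEMM tumours 227, 82.5, 256 and 65.7 CPM. Ad-BPR allografts had 79.3, 99.5, 182 and 267 CPM and Ad-BPR GEMM tumours 116 and 91.9 CPM. Normal oviduct had 67.8, 98.2 and 78.5 CPM and normal ovary 37.4, 37.6 and 37.4 CPM. Every OSE-BPR tumour was below every Pax8-BPR and Ad-BPR tumour, and the Pax8-BPR tumours spread over a wide range among themselves.

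Jag1 fell in OSE-BPR allografts against oviduct-origin allografts, at -3.48 ± 0.68 (adjusted p = 0.000568), and this call was kept whichever single library was left out. In GEMM tumours the fold change was -2.20 ± 0.79 (adjusted p = 0.0447). That call was lost in 7 of the 12 fits that left out a tumour, namely OSE-BPR GEMM replicate 2 (0.151) or 3 (0.19), Ad-BPR GEMM replicate 1 (0.0706) or 2 (0.0645), Pax8-BPR GEMM replicate 1 (0.0571) or 3 (0.0584) and Ovgp1-BPR GEMM replicate 1 (0.0715), all adjusted p. Without OSE-BPR GEMM replicate 1 the fold change was -3.17. Ovgp1-BPR against Ad-BPR and Pax8-BPR gave -2.05 ± 0.81 in allografts and -2.00 ± 0.81 in GEMM tumours, and both missed the threshold (adjusted p = 0.0727 and 0.0765). Both passed in DESeq2 (adjusted p = 0.0194 in allografts and 0.0221 in GEMM tumours). Without Ovgp1-BPR allograft replicate 3 the allograft value was -3.41 (adjusted p = 0.0133), and without Ovgp1-BPR GEMM replicate 1 the GEMM value was -2.97 (adjusted p = 0.0324). Normal oviduct was higher than normal ovary, at 1.20 ± 0.13 (adjusted p = 0.000311).

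Jag2, the second Jagged ligand, had lower levels in every GEMM group than in its normal tissue. It stood at 15.7, 12.1 and 9.89 CPM in OSE-BPR GEMM tumours, against 36.5, 36.7 and 31.9 CPM in normal ovary. It was at 16.9, 34.9 and 29.6 CPM in Ovgp1-BPR, 10.9, 19.7, 17.4 and 9.73 CPM in Pax8-BPR and 23.3 and 15.6 CPM in Ad-BPR GEMM tumours, against 45.3, 59.8 and 45.4 CPM in normal oviduct. None of these 4 GEMM groups overlapped with its normal tissue. Jag2 fell in OSE-BPR GEMM tumours, at -1.48 ± 0.38 (adjusted p = 0.00626), in Pax8-BPR, at -1.80 ± 0.34 (adjusted p = 0.00036) and in Ad-BPR, at -1.37 ± 0.43 (adjusted p = 0.0233). With limma on log2(TPM + 1) the OSE-BPR and Ad-BPR calls were lost (adjusted p = 0.0557 and 0.077). Ovgp1-BPR, at -0.89 ± 0.37, missed the threshold (adjusted p = 0.0677) but passed in DESeq2 (0.0415). The last 3 of these comparisons share the oviduct libraries. The Ad-BPR call was lost without Ad-BPR GEMM replicate 1 (adjusted p = 0.063) or 2 (0.208) or oviduct replicate 2 (0.0775), and with oviduct replicate 2 as the sole control (0.073). Between the tumour models Jag2 passed no test with all libraries, with -0.49 ± 0.28 in OSE-BPR against oviduct-origin allografts (adjusted p = 0.184), but without Pax8-BPR allograft replicate 2 that value was -0.78 and passed (0.026). A list of 6 smooth muscle genes summed to 129.6 to 1666 CPM in the GEMM tumours, against 9418 to 12278 CPM in normal oviduct and 1986 to 2456 CPM in normal ovary, and the part of muscle in the Jag2 values was not tested. Allografts held 8.75 to 38.5 CPM of Jag2.

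Dll1, a Delta ligand, was scarce in OSE-BPR tumours and highest in Ovgp1-BPR tumours. In OSE-BPR allografts it was at 0.574, 2.86, 0.0630, 0.129 and 0.621 CPM, which are 10, 53, 1, 2 and 10 counts, and in OSE-BPR GEMM tumours at 0.603, 0.275 and 0.366 CPM, or 9, 5 and 6 counts. Ovgp1-BPR allografts had 21.8, 27.3 and 7.76 CPM and Ovgp1-BPR GEMM tumours 5.14, 19.4 and 23.2 CPM. The 4 lowest of the 32 libraries were OSE-BPR tumours, and at such counts a single library is imprecise. Pax8-BPR allografts had 3.29 and 1.31 CPM and Pax8-BPR GEMM tumours 3.04, 3.42, 4.35 and 9.73 CPM. Ad-BPR allografts had 0.698, 2.84, 2.38 and 3.88 CPM and Ad-BPR GEMM tumours 3.71 and 0.512 CPM. Normal oviduct had 5.52, 6.91 and 6.98 CPM and normal ovary 8.80, 5.49 and 5.81 CPM, above every OSE-BPR tumour.

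Dll1 fell in OSE-BPR GEMM tumours against normal ovary, at -4.00 ± 0.99 (adjusted p = 0.00521), a call kept whichever single library was left out. Against oviduct-origin tumours the fold change was -2.46 ± 0.74 in allografts (adjusted p = 0.0123) and -3.73 ± 1.00 in GEMM tumours (adjusted p = 0.0102). The allograft value moved to -3.74 without OSE-BPR allograft replicate 2, the library with 53 counts. The GEMM call was lost without OSE-BPR GEMM replicate 2 (adjusted p = 0.0544) or 3 (0.0538), and the value was -3.09 without Ad-BPR GEMM replicate 1. Dll1 rose in Ovgp1-BPR tumours against Ad-BPR and Pax8-BPR, at 2.99 ± 0.83 in allografts, where the ranges did not overlap (adjusted p = 0.0141), and at 2.27 ± 0.82 in GEMM tumours (adjusted p = 0.0493). The allograft call was lost without Pax8-BPR allograft replicate 2 (adjusted p = 0.0841) or Ovgp1-BPR allograft replicate 2 (0.0713). The GEMM call was lost without Ad-BPR GEMM replicate 2 (0.185), Pax8-BPR GEMM replicate 1, 2 or 3 (0.0703, 0.0633 and 0.0661) or Ovgp1-BPR GEMM replicate 2 or 3 (0.132 and 0.181), and with RLE size factors (0.0526) or no filter (0.0714), all adjusted p. Without Ad-BPR GEMM replicate 1 that fold change was 3.26. Ovgp1-BPR GEMM tumours against normal oviduct gave 1.30 ± 0.86, with overlapping ranges (adjusted p = 0.255).

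Dll4, the Delta ligand of sprouting endothelium, was low in OSE-BPR allografts. It stood at 4.82, 7.65, 6.42, 11.7 and 5.77 CPM in OSE-BPR allografts and at 17.8, 18.4 and 8.18 CPM in OSE-BPR GEMM tumours. Ovgp1-BPR allografts had 15.1, 12.7 and 12.1 CPM and Ovgp1-BPR GEMM tumours 21.4, 22.1 and 17.9 CPM. All 5 OSE-BPR allografts lay below every other allograft, the nearest being an Ovgp1-BPR one. Pax8-BPR allografts had 79.7 and 31.2 CPM and Pax8-BPR GEMM tumours 33.6, 10.5, 13.6 and 23.5 CPM. Ad-BPR allografts had 39.5, 32.6, 25.4 and 32.2 CPM and Ad-BPR GEMM tumours 40.1 and 54.8 CPM. Normal oviduct had 15.7, 19.1 and 21.1 CPM and normal ovary 10.4, 14.6 and 14.2 CPM. Every Ad-BPR tumour lay above both normal tissues. Dll4 fell in OSE-BPR against oviduct-origin allografts, at -1.99 ± 0.31 (adjusted p = 7.29e-05) and in Ovgp1-BPR against Ad-BPR and Pax8-BPR allografts, at -1.67 ± 0.39 (adjusted p = 0.00477). Both calls were kept whichever single library was left out. In GEMM tumours these contrasts gave -0.86 ± 0.36 and -0.60 ± 0.37 and did not pass (adjusted p = 0.0785 and 0.243), although the first passed without Pax8-BPR GEMM replicate 2 (0.0432) and in DESeq2 (0.0415). Dll4 rose in Ad-BPR GEMM tumours against normal oviduct, at 1.35 ± 0.42 (adjusted p = 0.0225), a call lost without Ad-BPR GEMM replicate 2 (adjusted p = 0.216) or oviduct replicate 1 (0.0698) and with oviduct replicate 2 as the sole control (0.23). Normal oviduct was higher than normal ovary, at 0.59 ± 0.17 (adjusted p = 0.0249), which was lost without ovary replicate 1 (0.0691) or 3 (0.0503) or oviduct replicate 3 (0.0784). With limma on log2(TPM + 1) or log2(TPM + 0.1) this call was lost (0.102 and 0.105), as was that of Jag2 between these tissues (0.115 and 0.117).

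**Figure D3:**
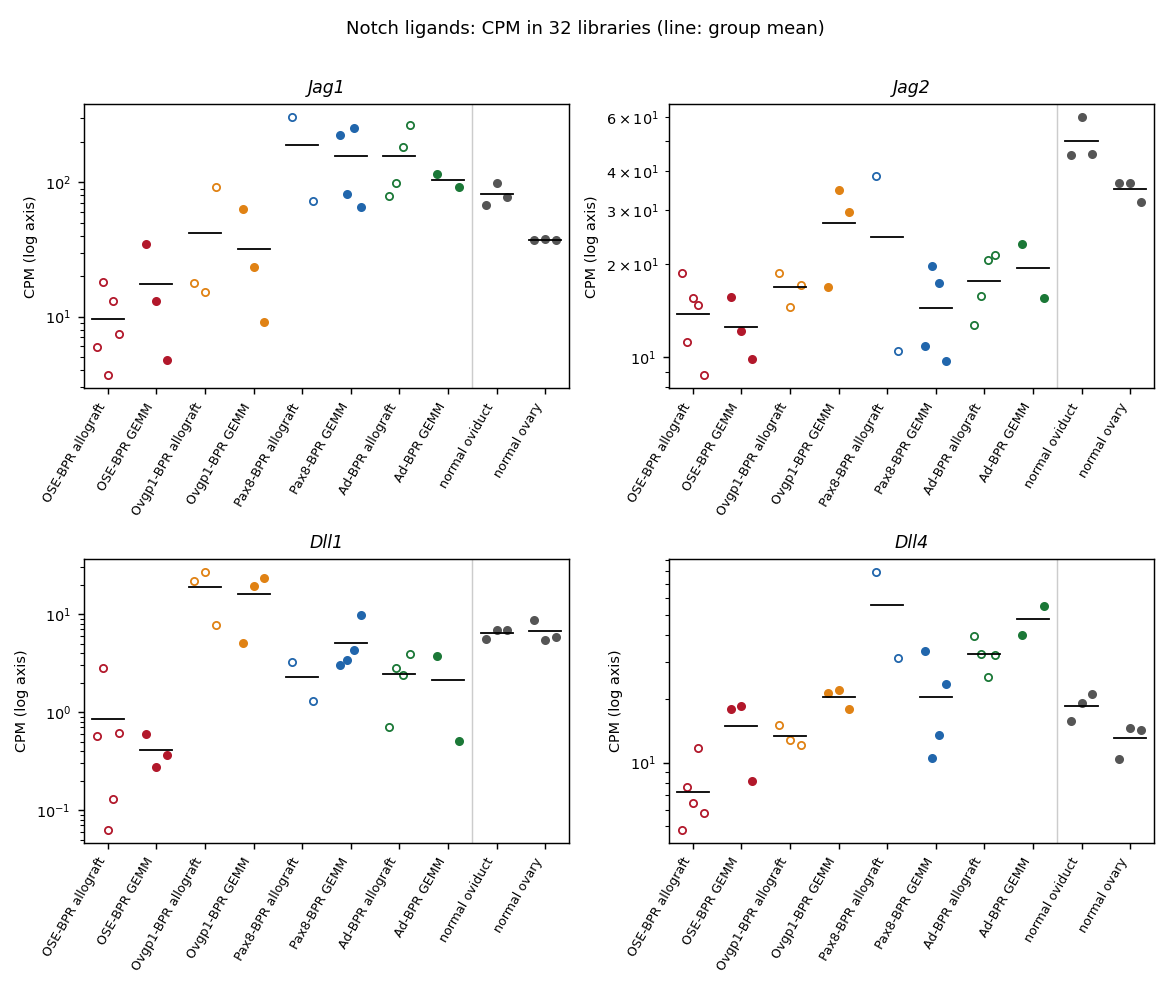
CPM of the 4 ligand genes in each of the 32 libraries (points, log axis), by group on the x axis, with the group mean as a line, open symbols for allografts and filled symbols for GEMM tumours and normal tissue. Jag1 lies between 3.65 and 34.7 CPM in OSE-BPR tumours and between 65.7 and 306.4 in Pax8-BPR and Ad-BPR tumours, and Dll1 lies between 5.14 and 27.3 CPM in Ovgp1-BPR tumours.

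Of the targets, Hes1 was lower in OSE-BPR than in oviduct-origin tumours. Hes1 stood at 38.9, 37.0, 13.3, 33.1 and 23.6 CPM in OSE-BPR allografts and at 50.2, 30.0 and 28.3 CPM in OSE-BPR GEMM tumours. Ovgp1-BPR allografts had 59.3, 73.9 and 75.0 CPM and Ovgp1-BPR GEMM tumours 56.9, 86.3 and 67.2 CPM. The OSE-BPR allografts did not overlap with any oviduct-origin allograft, and among GEMM tumours 1 Pax8-BPR tumour, at 36.5 CPM, reached down into the OSE-BPR range. Pax8-BPR allografts had 85.9 and 108 CPM and Pax8-BPR GEMM tumours 73.6, 54.6, 67.5 and 36.5 CPM. Ad-BPR allografts had 64.8, 77.3, 82.0 and 53.6 CPM and Ad-BPR GEMM tumours 82.3 and 85.6 CPM. Normal oviduct had 42.8, 38.7 and 34.7 CPM and normal ovary 26.7, 23.0 and 23.2 CPM. Apart from that Pax8-BPR tumour, every oviduct-origin tumour lay above all 6 normal libraries.

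Hes1 fell in OSE-BPR against oviduct-origin allografts, at -1.41 ± 0.24 (adjusted p = 0.000147), and the call was kept whichever single library was left out. In GEMM tumours the fold change was -0.95 ± 0.28 (adjusted p = 0.0183), a call lost without OSE-BPR GEMM replicate 2 (adjusted p = 0.0966) or 3 (0.114). Ovgp1-BPR against Ad-BPR and Pax8-BPR gave -0.24 ± 0.29 in allografts and 0.01 ± 0.29 in GEMM tumours (adjusted p = 0.58 and 0.998), so a difference in Hes1 was not detected where Notch3 had one. Hes1 rose in Ad-BPR GEMM tumours against normal oviduct, at 1.12 ± 0.33 (adjusted p = 0.0166), and in Ovgp1-BPR GEMM tumours, at 0.86 ± 0.30 (adjusted p = 0.0314). The Ad-BPR call was lost without Ad-BPR GEMM replicate 1 (adjusted p = 0.0534) or 2 (0.122) or oviduct replicate 3 (0.0563). The Ovgp1-BPR call was lost without Ovgp1-BPR GEMM replicate 2 (0.12) or 3 (0.0598) or oviduct replicate 2 (0.0682) or 3 (0.102), and with no filter on low counts (0.058). With oviduct replicate 2 as the sole control the 2 adjusted p values were 0.182 for Ad-BPR and 0.278 for Ovgp1-BPR. Pax8-BPR GEMM tumours gave 0.58 ± 0.28 (adjusted p = 0.116) and OSE-BPR GEMM tumours against ovary 0.57 ± 0.30 (adjusted p = 0.172), of which the second passed with limma on log2(TPM + 1) (0.0125). Normal oviduct was higher than normal ovary, at 0.76 ± 0.11 (adjusted p = 0.00136).

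Hey1, the second target, was low in both OSE-BPR and Ovgp1-BPR tumours and variable in the others. Hey1 stood at 9.12, 7.38, 3.78, 8.24 and 4.34 CPM in OSE-BPR allografts and at 10.1, 9.61 and 5.74 CPM in OSE-BPR GEMM tumours. Ovgp1-BPR allografts had 4.54, 4.45 and 2.99 CPM and Ovgp1-BPR GEMM tumours 5.61, 7.75 and 4.08 CPM. These 14 tumours covered 2.99 to 10.1 CPM. Pax8-BPR allografts had 97.3 and 14.4 CPM and Pax8-BPR GEMM tumours 10.5, 8.82, 53.9 and 2.26 CPM. Ad-BPR allografts had 18.3, 12.7, 41.6 and 50.7 CPM and Ad-BPR GEMM tumours 35.9 and 58.5 CPM. Normal oviduct had 20.8, 33.9 and 27.0 CPM and normal ovary 8.32, 7.37 and 6.63 CPM. All Ad-BPR tumours were above that range, whereas the Pax8-BPR GEMM tumours ran from 2.26 CPM to 53.9 CPM, the highest being replicate 3. The summed CPM of a list of ciliated cell markers differed between the same libraries. The 5 genes of that list summed to 7.20 to 55.9 CPM in OSE-BPR and Ovgp1-BPR tumours and to 51.3 to 190.3 CPM in Ad-BPR tumours, with 389.3 to 605.6 CPM in normal oviduct and 4.55 to 9.83 CPM in normal ovary. In Pax8-BPR GEMM replicate 3 the sum was 363.3 CPM, against 38.5, 27.6 and 167.5 CPM in replicates 1, 2 and 4. Replicate 4, above replicates 1 and 2 in this sum, had the lowest Hey1 of the group, at 2.26 CPM. In Pax8-BPR allografts the sums were 309.6 and 28.1 CPM. Much of the sum came from Foxj1 in the Pax8-BPR and Ad-BPR groups, with means of 97.6 to 162.1 CPM beside mean sums of 106.8 to 168.9. Gene by gene, 1 of the 5 was lower and 1 higher in OSE-BPR against oviduct-origin tumours in each setting. In Ovgp1-BPR against Ad-BPR and Pax8-BPR, 1 was lower and 0 higher in allografts, and 0 lower and 1 higher in GEMM tumours. The part of ciliated cells in the Hey1 values was not tested.

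Hey1 fell in Ovgp1-BPR against Ad-BPR and Pax8-BPR tumours, at -3.38 ± 0.81 in allografts, with no overlap (adjusted p = 0.00589), and at -2.36 ± 0.77 in GEMM tumours (adjusted p = 0.0321). The allograft value was -2.42 without Pax8-BPR allograft replicate 1, and still passed. The GEMM call was lost without Ad-BPR GEMM replicate 2 (adjusted p = 0.0808), Pax8-BPR GEMM replicate 3 (0.0509, at -1.66) or Ovgp1-BPR GEMM replicate 1, 2 or 3 (0.0708, 0.0734 and 0.133), and with limma on TPM (0.0569 at either pseudocount). Pax8-BPR GEMM tumours against normal oviduct gave -0.53 ± 0.66 (adjusted p = 0.571), but -1.92 without Pax8-BPR GEMM replicate 3 (adjusted p = 0.0172). Against normal oviduct, Hey1 fell in Ovgp1-BPR GEMM tumours, at -2.23 ± 0.75 (adjusted p = 0.0252), which was lost without Ovgp1-BPR GEMM replicate 1 (0.0594) or 3 (0.0962) or oviduct replicate 2 (0.0717), and with oviduct replicate 2 as the sole control (0.086). OSE-BPR against oviduct-origin allografts gave -1.53 ± 0.57 (adjusted p = 0.0406). This was lost without any 1 of the 5 OSE-BPR allografts (adjusted p between 0.051 and 0.0963), without Ad-BPR allograft replicate 3 or 4 (0.0553 and 0.0593) and without Pax8-BPR allograft replicate 1 (0.206, at -0.94). It was also lost with limma on log2(TPM + 1) or log2(TPM + 0.1) and with voom (adjusted p = 0.0797, 0.0818 and 0.107). The GEMM contrast gave -1.03 ± 0.68 (adjusted p = 0.276). Normal oviduct was higher than normal ovary, at 1.96 ± 0.20 (adjusted p = 0.000242), the largest difference of the 10 genes between these tissues.

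**Figure D4:**
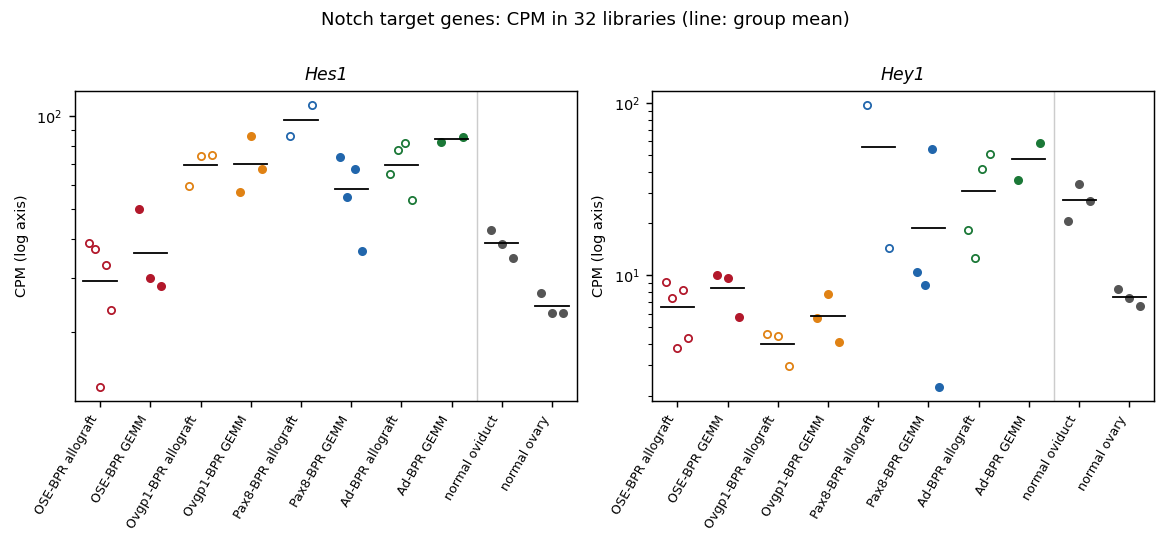
CPM of Hes1 and Hey1 in each of the 32 libraries (points, log axis), by group on the x axis, with the group mean as a line, open symbols for allografts and filled symbols for GEMM tumours and normal tissue. Hes1 is at most 50.2 CPM in every OSE-BPR tumour, and Hey1 is at most 10.1 CPM in every OSE-BPR and Ovgp1-BPR tumour.

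By site of origin, all 10 genes had a lower fitted level in OSE-BPR than in the mean of the oviduct models. This held in allografts and in GEMM tumours, but the oviduct models did not all follow it. Hey1 had lower group means in Ovgp1-BPR than in OSE-BPR (3.99 against 6.57 CPM in allografts, 5.81 against 8.47 in GEMM tumours). For Notch3 and Jag1 the ranges of OSE-BPR and Ovgp1-BPR overlapped in both settings, while every Pax8-BPR and Ad-BPR tumour lay above OSE-BPR. In allografts 8 of the 10 fell and 0 rose, all but Notch2 and Jag2, beside 37.8% of all 20000 genes tested that passed in either direction. Their median log2 fold change was -1.47, against 0.04 over all genes. In GEMM tumours 4 fell and 0 rose (Notch3, Jag1, Dll1 and Hes1), beside 26% of all genes, with a median of -0.91 against 0.02. Leaving out either OSE-BPR GEMM replicate 2 or 3 took this count to 0. Among oviduct models, 1 gene rose and 3 fell in Ovgp1-BPR against Ad-BPR and Pax8-BPR allografts, beside 22.3% of all genes, and the median was -0.70 against 0.02. In GEMM tumours 1 rose and 2 fell, beside 22.7%, with a median of -0.20 against -0.01, and this count was 0 without Ovgp1-BPR GEMM replicate 3 and 1 without Ovgp1-BPR GEMM replicate 2, Ad-BPR GEMM replicate 2 or Pax8-BPR GEMM replicate 3. The Trp53 allele differs between Ovgp1-BPR and the other oviduct models by label, so allele and driver cannot be told apart.

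Against normal tissue 10% to 30% of the 10 genes were called, beside 23.2% to 32.6% of all genes. OSE-BPR GEMM tumours had 0 of the 10 higher and 3 lower than normal ovary, beside 23.2% of the 20887 genes tested, with a median of -0.20 against 0.00. Ovgp1-BPR GEMM tumours had 2 higher and 1 lower than normal oviduct (beside 32.6%, median -0.02 against -0.05). Pax8-BPR GEMM tumours had 0 higher and 1 lower (beside 32.2%, median 0.56 against -0.01), and Ad-BPR GEMM tumours 2 higher and 1 lower (beside 24.1%, median 0.48 against -0.07). These 3 comparisons share the 3 oviduct libraries. The control in each is a whole organ. Normal oviduct itself had 6 of the 10 higher than normal ovary and 0 lower, beside 53% of 17334 genes, with a median of 0.60 against 0.02. When these 6 libraries were fitted with the 26 tumours, 0 of the 10 passed (adjusted p between 0.103 and 0.451 for the 6).

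**Figure D5:**
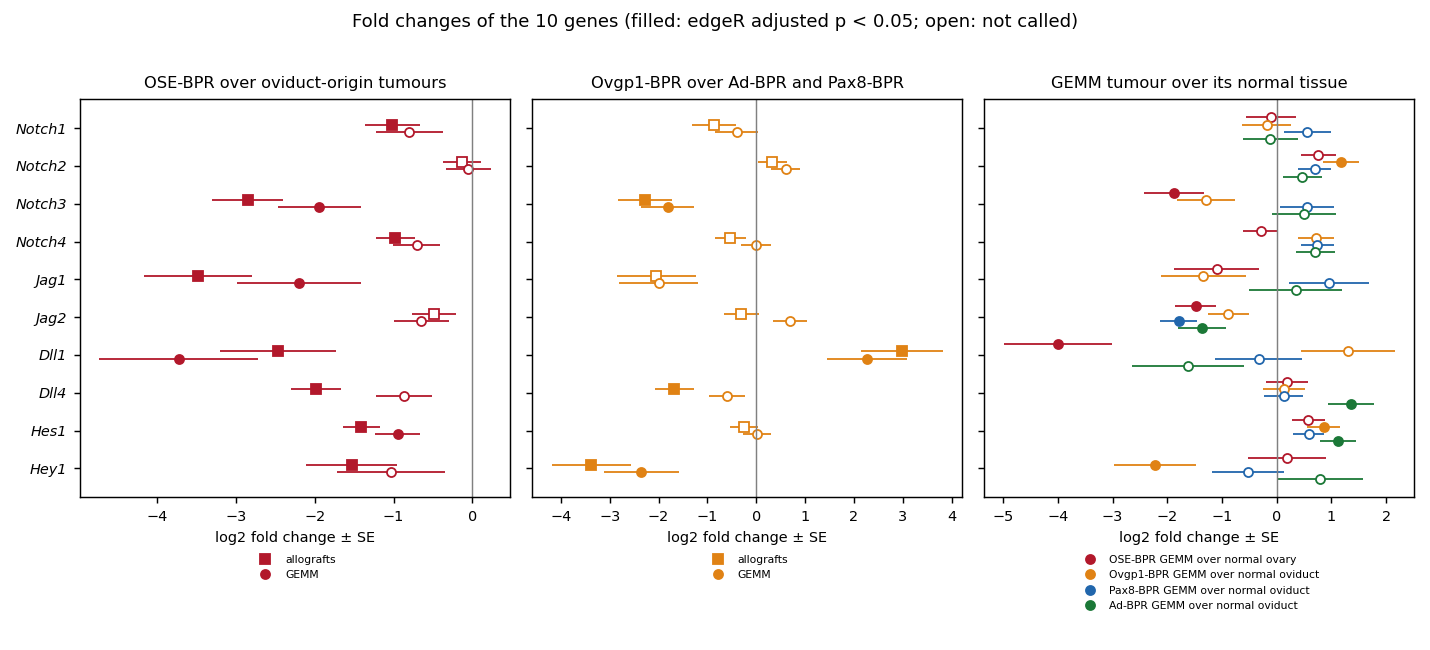
Log2 fold changes ± SE of the 10 genes (rows) for OSE-BPR over oviduct-origin tumours (left), Ovgp1-BPR over Ad-BPR and Pax8-BPR tumours (middle) and GEMM tumours over their normal tissue (right), filled where the edgeR adjusted p passed 0.05 and open otherwise. In the left panel all 20 values lie below 0, and Notch3 and Jag1 are the lowest in allografts at -2.85 and -3.48.

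The rest of the pathway had genes called in both directions between origins, at shares not above those of all genes. Of 48 other pathway genes (noncanonical ligands, modifiers, proteases, nuclear partners, regulators and targets), 44 were tested, and Dll3, Hes3, Hes5 and Hes7 were too low. For single genes of this list, here and below, other settings and fits that leave out a library were not examined. The CPM given for several models together are plain means of the group means. Fold changes average the groups on the log scale, so the ratio of the CPM can differ from them. In OSE-BPR against oviduct-origin allografts 7 rose and 7 fell, with a median of -0.03 (0.04 over all genes), and in GEMM tumours 6 rose and 5 fell, with a median of -0.02 (0.02 over all genes). That is 31.8% and 25% of the list, beside 37.8% and 26% of all genes. Dtx1, a Deltex ubiquitin ligase that acts on Notch, rose most (80.2 against 3.13 CPM, 5.88 ± 0.91 on the log2 scale in allografts, 105 against 11.5 CPM, 4.34 ± 0.87 in GEMM tumours). Its adjusted p was 6.4e-05 in allografts and 0.00125 in GEMM tumours. Dlk1, a noncanonical ligand of the Delta family, was also higher in OSE-BPR allografts (10.7 against 0.611 CPM, 4.15 ± 0.85, adjusted p = 0.000776). Its relative Dlk2 was low throughout, at 3.01 against 0.330 CPM in allografts and 1.54 against 0.424 CPM in GEMM tumours, and passed in both (adjusted p = 0.000926 and 0.0275). Aph1c, a gamma-secretase subunit, rose in OSE-BPR GEMM tumours (11.2 against 4.76 CPM, 1.27 ± 0.37, adjusted p = 0.0162).

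Genes of the nuclear complex (Maml2 and Rbpj) and the target Nrarp were among those lower in OSE-BPR tumours. Maml2, a coactivator that binds the Notch intracellular domain on Rbpj, fell in allografts (4.00 against 37.7 CPM, -3.17 ± 0.40, adjusted p = 7.75e-06) and in GEMM tumours (7.73 against 32.2 CPM, -1.97 ± 0.46, adjusted p = 0.00418). Rbpj, the DNA-binding partner of the receptors, fell in allografts (51.8 against 118 CPM, -1.12 ± 0.18, adjusted p = 8.14e-05), beside 57.4 CPM in normal oviduct. Nrarp, a Notch target that feeds back on the complex, fell in GEMM tumours (7.01 against 20.1 CPM, -1.51 ± 0.51, adjusted p = 0.0352). The other genes named here are Dtx3l, a Deltex relative known with interferon signalling, lower in allografts (18.3 against 79.4 CPM, -2.07 ± 0.30, adjusted p = 3.36e-05), and Aph1b, a gamma-secretase subunit, lower in GEMM tumours (4.73 against 17.5 CPM, -1.73 ± 0.49, adjusted p = 0.0141).

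In Ovgp1-BPR against Ad-BPR and Pax8-BPR tumours, 9 of the 44 other genes rose and 8 fell in allografts, and 6 rose and 8 fell in GEMM tumours. That is 38.6% and 31.8% of the list, beside 22.3% and 22.7% of all genes. Lfng, a glycosyltransferase that changes how receptors respond to Delta and Jagged ligands and whose promoter is printed above, fell in both (20.1 against 97.5 CPM, -2.27 ± 0.73 in allografts, 12.5 against 75.5 CPM, -2.57 ± 0.74 in GEMM tumours). Its adjusted p was 0.0294 in allografts and 0.0177 in GEMM tumours. Its level by group was 20.1 ± 22.2 CPM in Ovgp1-BPR allografts and 12.5 ± 6.82 in Ovgp1-BPR GEMM tumours, against means of 63.2 to 110.5 in the Pax8-BPR and Ad-BPR groups. Dtx1 rose here too, with a wide spread among Ovgp1-BPR tumours (8.27 ± 11.3 CPM in allografts and 29.6 ± 37.2 in GEMM tumours, against 0.417 ± 0.0742 in Pax8-BPR and 0.700 ± 0.925 in Ad-BPR allografts), at adjusted p = 0.0128 and 0.0124. In GEMM tumours Psen2, a catalytic subunit of gamma-secretase, rose (47.7 against 19.4 CPM, 1.37 ± 0.26, adjusted p = 0.00142). The sheddase Adam17 (51.3 against 120.5 CPM, -1.22 ± 0.23, adjusted p = 0.00133) and Dtx3l (33.4 against 97.3 CPM, -1.54 ± 0.37, adjusted p = 0.00698) fell there. In allografts the ubiquitin ligase Fbxw7, which marks the Notch intracellular domain for breakdown (18.8 against 44.5 CPM, -1.22 ± 0.33, adjusted p = 0.0111), and the Hes family member Hes6 (15.7 against 35.9 CPM, -1.13 ± 0.33, adjusted p = 0.0178) fell. Dlk2, Dner and Hes2 also passed, at levels of at most 1.09 CPM in either arm.

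Against normal tissue, OSE-BPR GEMM tumours had 3 of the 44 higher and 5 lower than ovary. Ovgp1-BPR, Pax8-BPR and Ad-BPR GEMM tumours had 11, 6 and 7 higher and 4, 7 and 8 lower than oviduct. The called shares were 18.2% beside 23.2% of all genes for OSE-BPR, 34.1% beside 32.6% for Ovgp1-BPR, 29.5% beside 32.2% for Pax8-BPR and 34.1% beside 24.1% for Ad-BPR. Hey2, a relative of Hey1 whose promoter is printed above, fell in OSE-BPR (2.41 against 24.4 CPM, -3.33 ± 0.90, adjusted p = 0.00941), Pax8-BPR (2.22 against 12.6 CPM, -2.50 ± 0.79, adjusted p = 0.017) and Ad-BPR tumours (1.37 against 12.6 CPM, -3.20 ± 1.07, adjusted p = 0.0306). Dtx1 ran in opposite directions, higher in OSE-BPR tumours than in ovary (105 against 7.32 CPM, 3.84 ± 1.11, adjusted p = 0.0141) and lower than in oviduct in Pax8-BPR (3.60 against 38.7 CPM, -3.42 ± 0.98, adjusted p = 0.0095) and Ad-BPR tumours (1.27 against 38.7 CPM, -4.91 ± 1.42, adjusted p = 0.0149), and the difference between these contrasts was not tested. The coactivators also differed in OSE-BPR tumours, where Maml3 rose (93.7 against 22.2 CPM, 2.08 ± 0.48, adjusted p = 0.00298) and Maml2 fell (7.73 against 23.1 CPM, -1.58 ± 0.47, adjusted p = 0.0163). Rbpj rose in Ovgp1-BPR tumours (173 against 57.4 CPM, 1.59 ± 0.24, adjusted p = 1.93e-05), as did Neurl1b, a ubiquitin ligase for ligands (87.5 against 18.2 CPM, 2.26 ± 0.51, adjusted p = 0.00164), and Aph1b (28.4 against 6.15 CPM, 2.21 ± 0.51, adjusted p = 0.00228). Neurl1b rose in OSE-BPR tumours as well (31.0 against 8.05 CPM, 1.94 ± 0.51, adjusted p = 0.00724).

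Adam17 and Adam10 are sheddases that cut the receptors. Adam17 was higher in Pax8-BPR (109 against 56.9 CPM, 0.94 ± 0.22, adjusted p = 0.00239) and Ad-BPR tumours (132 against 56.9 CPM, 1.22 ± 0.26, adjusted p = 0.00157) than in oviduct, and Adam10 in Ad-BPR tumours (278 against 102 CPM, 1.45 ± 0.36, adjusted p = 0.00531). The gamma-secretase subunit Ncstn rose in Pax8-BPR tumours (197 against 88.9 CPM, 1.15 ± 0.16, adjusted p = 5.94e-06), and Aph1c fell in Ad-BPR tumours (3.43 against 9.44 CPM, -1.46 ± 0.52, adjusted p = 0.0421). Dtx3l rose in both Pax8-BPR (106 against 27.6 CPM, 1.94 ± 0.36, adjusted p = 0.000285) and Ad-BPR tumours (88.6 against 27.6 CPM, 1.68 ± 0.40, adjusted p = 0.00455). Egfl7, a secreted endothelial protein that can bind Notch, fell in OSE-BPR (18.0 against 54.0 CPM, -1.59 ± 0.33, adjusted p = 0.00143) and Ovgp1-BPR tumours (22.4 against 53.8 CPM, -1.26 ± 0.33, adjusted p = 0.00541), and Egfl7 is also on the endothelial list. Of the 10 endothelial genes, 8 were lower and 0 higher in OSE-BPR tumours than in ovary, and 5 were lower and 2 higher in Ovgp1-BPR tumours than in oviduct. In Ovgp1-BPR tumours the fringe enzyme Rfng (25.6 against 54.8 CPM, -1.10 ± 0.25, adjusted p = 0.00212) and Hes6 (13.9 against 31.0 CPM, -1.15 ± 0.33, adjusted p = 0.00942) fell, and Dlk2 fell in Pax8-BPR tumours, at 0.0761 against 0.647 CPM (adjusted p = 0.033).

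Between the normal tissues 11 of 43 other genes tested were higher in oviduct and 15 lower, 60.5% of them beside 53% of all genes. Dtx1 (38.7 against 7.32 CPM, 2.49 ± 0.19), Lfng (27.2 against 8.29 CPM, 1.80 ± 0.22) and Neurl1a (23.9 against 9.28 CPM, 1.44 ± 0.26) led those higher, with adjusted p of 6.55e-05, 0.000614 and 0.00306. Heyl, a further Hey family gene (27.0 against 98.2 CPM, -1.77 ± 0.26), Psen2 (27.5 against 69.5 CPM, -1.25 ± 0.14) and Dlk2 (0.647 against 2.67 CPM, -1.98 ± 0.44) led those lower, with adjusted p of 0.00142, 0.000449 and 0.00779. Of the cell type lists, 5 of 5 epithelial, 5 of 5 ciliated cell and 6 of 6 smooth muscle genes were higher in the oviduct, and 6 of 6 granulosa and luteal genes were lower. Of the fibroblast genes 4 were higher and 1 lower, of the 7 mural genes 4 and 1, and of the 10 endothelial genes 2 and 2. The part of these cells in the differences was not tested.

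Transfer to another mouse was tested within each model and changed none of the 10 genes past the threshold. With edgeR, 0 of 20000 genes were called in each of the 4 allograft against GEMM comparisons (0% of all genes), at 457 genes with an unadjusted p below 0.05 for OSE-BPR, 419 for Ovgp1-BPR, 2978 for Pax8-BPR and 352 for Ad-BPR. DESeq2 called 12, 9, 731 and 11 genes. Of the 10 genes, unadjusted p fell below 0.05 for Dll4 and Notch4 in OSE-BPR, with -1.03 ± 0.36 and -0.66 ± 0.31 (unadjusted p = 0.0102 and 0.0451, adjusted p = 1 for both). It did so for Dll4 and Hes1 in Pax8-BPR, with 1.45 ± 0.42 and 0.74 ± 0.34 (unadjusted p = 0.00238 and 0.0382, adjusted p = 0.152 and 0.31), and for Notch4 in Ovgp1-BPR, with -0.75 ± 0.35 (unadjusted p = 0.0465, adjusted p = 1). DESeq2 called Dll4 in Pax8-BPR, at an adjusted p of 0.0345. Dll4 was also the member with the lowest p in both tests of whether a model difference itself differed between allografts and GEMM tumours. For OSE-BPR against oviduct-origin that change was -1.12 ± 0.44 (unadjusted p = 0.019, adjusted p = 1) and for Ovgp1-BPR against Ad-BPR and Pax8-BPR it was -1.07 ± 0.52 (unadjusted p = 0.0504, adjusted p = 1). In these tests edgeR called 0 genes, at 443 and 665 genes with an unadjusted p below 0.05, and DESeq2 called 14 and 19.

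Pax8-BPR and Ad-BPR, a pair of ways to start a tumour in the oviduct, gave 0 called members in either setting. With edgeR, 0% of all genes passed in GEMM tumours, at 1531 genes with an unadjusted p below 0.05, and 0.19% (38 genes) in allografts. DESeq2 called 52 and 451 genes and 0 of the 10 in each. The member with the lowest unadjusted p was Dll4, at -1.23 ± 0.42 in GEMM tumours (unadjusted p = 0.00849, adjusted p = 0.562), where the ranges did not overlap, and at 0.78 ± 0.43 in allografts (adjusted p = 0.495). Such misses do not show that the models are alike. For Jag1 the standard errors were 0.91 in GEMM tumours and 0.87 in allografts on the log2 scale, against differences of 0.60 and 0.28.

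The 10 groups were ordered by mean CPM for each gene, and neighbours were compared by their ranges. The share of separated neighbours over all genes was not counted, so these counts cannot be called many or few. Of 9 neighbouring pairs, 1 was separated for Notch3 (Ad-BPR GEMM tumours above normal oviduct), 1 for Jag2 (normal oviduct above normal ovary), 1 for Hes1 (Pax8-BPR allografts above Ad-BPR GEMM tumours) and 2 for Dll4 (Ad-BPR GEMM tumours above Ad-BPR allografts, and these above Ovgp1-BPR GEMM tumours). For the other 6 genes 0 pairs were separated. From the highest group mean to the lowest the ratio was 45.7 for Dll1, 19.7 for Jag1, 14.0 for Notch3 and 14.0 for Hey1, and 2.32 for Notch2, the smallest. OSE-BPR allografts had the lowest mean for Notch1, Notch3, Notch4, Jag1 and Dll4, and OSE-BPR GEMM tumours for Jag2 and Dll1. Normal ovary had the lowest mean of Hes1 and of Notch2, and Ovgp1-BPR allografts that of Hey1.

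Across the 32 libraries, Pearson correlations of log2 CPM describe which genes shared a pattern, with group differences, strain and library makeup shared by all points. Notch3 and Jag1 correlated at 0.89 (0.57 after removing group means), and Notch1 with Jag1 at 0.78 (0.54). Correlations of Notch2 with the other 9 ran from -0.35 (Jag2) to 0.25 (Hes1). Hes1 correlated at 0.58 with Jag1 (0.39 within groups) and at 0.66 with Dll4 (0.01 within groups). Among 11152 genes with a mean of at least 10 CPM, those most like Notch3 were Elk3 (0.94, and 0.69 within groups), Tnnt2 (0.94 and 0.81) and Rac3 (0.94 and 0.77). Rac3 (0.94 and 0.79), Mapk11 (0.92 and 0.75) and Gpn2 (0.92 and 0.79) were most like Jag1. For Notch1 they were Slc52a3 (0.83), Ifi207 (0.80) and Unc93b1 (0.79), for Notch2 Arhgef2 (0.76), Plekhf1 (0.75) and Rbbp8 (0.74), and for Notch4 Plk2 (0.84), Pde1b (0.82) and Cd93 (0.82). For Jag2 they were Aoc3 (0.82), Psd (0.79) and Unc45a (0.78), for Dll4 Sat1 (0.81), Ttc9 (0.81) and Vopp1 (0.80). Dll1, compared with 11153 genes, was most like Ppp2r5b (0.84), Zfp219 (0.83) and Trp53 (0.81), the last of which was at 0.05 within groups. Hes1 was most like Efnb2 (0.89, and 0.68 within groups), Ncam1 (0.84) and Frk (0.84), and Hey1 most like Tead3 (0.79), Cdh6 (0.78) and Zfp622 (0.76).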

How the data were processed

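Total RNA from 26 tumours and 6 normal tissues was sequenced. The authors deposited 2 tables, of expected counts and of TPM per gene. Tools named per the submitters' processing notes are bcl2fastq, Picard, cutadapt 1.18, STAR 2.7.0f and RSEM 1.3.1 on mm10 (GRCm38). Whether the counting was strand-specific was not stated in any label. All 55450 gene IDs matched GENCODE M21, and 0 columns were left unmapped.

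Expected counts were rounded to whole numbers (119214 values were not whole) and tested with edgeR 4.0.16 (quasi-likelihood test, TMM factors, filterByExpr with a minimum count of 10 and a total of 15) in R 4.3.3, with Benjamini-Hochberg adjustment over all genes tested and a threshold of 0.05. Comparisons of the normal tissues used 6 libraries (17334 genes), those between tumours 26 libraries (20000 genes) and those of tumours with normal tissue 32 libraries (20887 genes). TMM factors ran from 0.891 to 1.12. A contrast against several models used the mean of the group means on the log scale.

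The 10 genes and all lists were chosen with earlier results of these data known. All 10 genes are named, along with at most 3 called genes per direction and comparison from the list of other pathway genes, those with the largest fold changes, and the 3 genes most correlated with each member (log2 CPM with a prior count of 2, mean of at least 10 CPM). The alternatives were DESeq2 1.42.0, RLE factors, no filter, limma 3.58.1 on log2(TPM + 1) and log2(TPM + 0.1), voom with quality weights, another set of libraries in the fit, oviduct replicate 2 as the sole control, and leaving out each library. Normal ovary and oviduct came from the same 3 animals per the labels, and deviations from the group means correlated at -0.084, -0.044 and 0.06 within animals. No pair of replicates was a duplicate (lowest chi-square per degree of freedom 9.16 over 39 pairs). Where labels do not name separate animals, p-values measure the spread between these samples only.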

Additional observations from a re-analysis of the deposited data

Results flagged for a closer look

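In 4 of 30 sets of values (the 10 genes in the 3 groups of 4 or more libraries), 1 library stood far from the others, beside about 1 in 20 expected by chance. Notch1 was at 81.8 CPM in OSE-BPR allograft replicate 2, against 18.8 to 34.1 CPM in the other allografts of the model. In the same library Dll1 was at 2.86 CPM, against 0.0630 to 0.621 CPM in the others. Notch1 was at 121 CPM in Ad-BPR allograft replicate 2, against 79.9 to 80.2 CPM in the others. Hey1 was at 53.9 CPM in Pax8-BPR GEMM replicate 3, against 2.26 to 10.5 CPM in the others.

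For 3 genes the libraries of one model all moved one way and those of another all moved the opposite way under the same kind of contrast, and these differences were not tested. The share of all genes that meet this rule was not counted. Groups this small can separate by chance, so the 3 cannot be called more than usual. Notch3 was higher in Ad-BPR GEMM tumours than in oviduct (log2 fold change 0.50), but lower in Ovgp1-BPR GEMM tumours than in oviduct (-1.29) and in OSE-BPR GEMM tumours than in ovary (-1.88). Hey1 was at 0.79 in Ad-BPR and -2.23 in Ovgp1-BPR GEMM tumours over oviduct, which share the control libraries. Hes1 was at 0.74 in Pax8-BPR and -0.27 in Ad-BPR allografts over GEMM tumours, contrasts in which edgeR called 0 genes.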

How the results depend on the processing

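Over 1210 values under other settings, 1145 kept their side of the threshold, 28 were no longer called and 37 became called. Of those called in the main fit or under the other setting, 0 reversed direction. For values called in neither, direction was not compared. Over 1560 values with 1 library left out, these numbers were 1484, 63, 13 and 0. The causes of these changes were not tested. With the animal as a replicate block, 6 of the 10 genes were again called between normal oviduct and ovary (7971 genes in all, against 9191), so the block changed no call.

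With all 32 libraries in the fit, 0 of the 10 genes were called between normal oviduct and ovary, against 6 (2605 genes in all). With voom and quality weights, 6 were called in OSE-BPR GEMM tumours over ovary, against 3 (9901 genes, against 4842). Voom called 8 in Ovgp1-BPR over oviduct, against 3 (10934 against 6811), and 2 in Pax8-BPR over oviduct, against 1 (9490 against 6729). It called 7 in OSE-BPR over oviduct-origin GEMM tumours, against 4 (8273 against 5202), and 5 in Ovgp1-BPR over Ad-BPR and Pax8-BPR GEMM tumours, against 3 (7747 against 4542). DESeq2 called 2 in Pax8-BPR GEMM tumours over oviduct (7254 genes against 6729) and 5 in Ovgp1-BPR GEMM tumours (7343 against 6811). In Pax8-BPR allografts over GEMM tumours it called 1 (Dll4), against 0 (731 genes against 0). Fitting only the groups compared gave 3 in Pax8-BPR over oviduct (5651 genes against 6729). With oviduct replicate 2 as the sole control, which is assumed to vary like the other groups, 0 were called in Ad-BPR and 0 in Ovgp1-BPR (1485 genes against 5033, and 2271 against 6811), and 2301 genes against 6729 in Pax8-BPR.

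Leaving out 1 library gave 0 to 2 called genes in Ad-BPR, 1 to 2 in Pax8-BPR and 0 to 3 in Ovgp1-BPR GEMM tumours over oviduct. It gave 0 to 5 in OSE-BPR over oviduct-origin GEMM tumours, 0 to 3 in Ovgp1-BPR over Ad-BPR and Pax8-BPR GEMM tumours, 6 to 9 in OSE-BPR over oviduct-origin allografts and 3 to 6 in Ovgp1-BPR over Ad-BPR and Pax8-BPR allografts. Where this left a group with 1 library (Ad-BPR GEMM, Pax8-BPR allograft), that library is assumed to vary like the other groups. The counts over all genes with 1 library left out were 6404 to 7442 in OSE-BPR over oviduct-origin allografts. They were 4941 to 7209 in Pax8-BPR and 4609 to 6888 in Ovgp1-BPR GEMM tumours over oviduct. Over all genes such fits called 1629 to 3709 in Ad-BPR over oviduct, 3114 to 4934 in OSE-BPR over ovary, 2695 to 5663 and 1965 to 4934 in the GEMM contrasts of OSE-BPR and Ovgp1-BPR, 2063 to 5315 in the Ovgp1-BPR allograft contrast, 0 to 105 in Pax8-BPR over Ad-BPR allografts, 0 to 3 in the same GEMM contrast and 0 to 117 in Pax8-BPR allografts over GEMM tumours.

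Counts over all genes also moved elsewhere. In Ad-BPR over oviduct voom called 8578 and a fit of only the groups compared 8483 genes, against 5033, and in Ovgp1-BPR over Ad-BPR and Pax8-BPR allografts voom called 7759, against 4456. In Pax8-BPR over Ad-BPR GEMM tumours, limma on log2(TPM + 1) and voom called 16 each and the fit of all libraries 9, against 0. In allografts no filter gave 15, limma on TPM 63 and the fit of all libraries 159, against 38. In Pax8-BPR allografts over GEMM tumours, limma gave 112 on log2(TPM + 1) and 52 on log2(TPM + 0.1), voom 9 and the fit of all libraries 174, against 0. Voom called 1 gene in Ad-BPR and 1 in Ovgp1-BPR allografts over GEMM tumours, and limma on log2(TPM + 1) called 1 in the second of these. Groups of 2 to 5 libraries and, for Dll1 in OSE-BPR tumours, 1 to 53 counts limit the precision.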
